A study of Mus musculus with 19 samples.

Results

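Sds, Hal, Cyp2f2, Hsd17b13, Aldh1b1, Ctsc, Pigr and Gldc are 8 genes that mark periportal hepatocytes, the liver cells around the portal veins. They were chosen by name, matched by symbol to 1 Ensembl identifier each among the 39179 genes of the count table, and described across 10 end-stage mouse liver tumours. The tumours, numbered 04 to 13, were from male mice with 1 Ctnnb1tm1Mmt allele (HET), which yields stabilised β-catenin once its exon 3 is removed, and with Gt(ROSA)26Sortm1(MYC)Djmy (HOM), a human MYC gene that Cre switches on. All received AAV8.TBG.PI.Cre.rBG at 640000000 genome copies per mouse, a virus whose TBG promoter limits Cre to hepatocytes, at a dose the study chose to hit solitary cells. Age and time after injection are not in the labels, and the study's methods give a mixed genetic background. The series labels 13 tumours, 3 control livers and 3 control livers given 200000000000 genome copies, and since the control livers were left out here, no level below is set against normal liver.

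In normal liver, metabolic genes are zoned along the axis from the portal vein to the central vein. Wnt ligands from central vein endothelium keep β-catenin active in the hepatocytes next to it, where glutamine synthetase and Cyp2e1 are made, while portal hepatocytes carry urea synthesis, amino acid breakdown and gluconeogenesis. Activation of β-catenin is known to repress the portal programme in hepatocytes. Of the members, Sds (serine dehydratase), Hal (histidine ammonia-lyase) and Gldc (glycine decarboxylase) break down amino acids. Cyp2f2 is a cytochrome P450, Hsd17b13 a lipid droplet protein and Aldh1b1 a mitochondrial aldehyde dehydrogenase. Pigr carries polymeric immunoglobulin A across epithelial cells into bile, and Ctsc is a lysosomal dipeptidyl peptidase that is also made by myeloid cells.

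The members lie at separate loci. On GRCm38.p6 in the RefSeq annotation, Pigr spans 130826684 to 130852249 of chromosome 1, Aldh1b1 45799022 to 45804608 of chromosome 4, Hal 93488768 to 93516761 of chromosome 10 and Gldc 30098441 to 30175441 of chromosome 19. Hsd17b13 (103955442 to 103977388) and Sds (120476547 to 120483932) are both on chromosome 5, and Cyp2f2 (27119955 to 27133660) and Ctsc (88278024 to 88315861) on chromosome 7. The 250 bases before the transcription start are shown for the members whose levels moved most closely with Sds, as the RefSeq sequence on the strand of the gene. Capitals mark the words described after them.

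Hal, chr10:93488518-93488767, plus strand: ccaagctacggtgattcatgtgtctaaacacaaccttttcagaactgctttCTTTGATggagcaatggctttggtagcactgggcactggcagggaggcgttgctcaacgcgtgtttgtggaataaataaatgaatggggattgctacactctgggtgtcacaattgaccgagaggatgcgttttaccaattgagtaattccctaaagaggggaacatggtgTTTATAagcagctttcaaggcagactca

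Pigr, chr1:130826434-130826683, plus strand: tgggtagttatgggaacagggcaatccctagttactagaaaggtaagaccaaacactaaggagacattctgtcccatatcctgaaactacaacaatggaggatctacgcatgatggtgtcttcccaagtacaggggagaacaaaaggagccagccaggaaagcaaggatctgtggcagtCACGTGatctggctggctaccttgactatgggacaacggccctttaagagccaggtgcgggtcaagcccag

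Cyp2f2, chr7:27119705-27119954, plus strand: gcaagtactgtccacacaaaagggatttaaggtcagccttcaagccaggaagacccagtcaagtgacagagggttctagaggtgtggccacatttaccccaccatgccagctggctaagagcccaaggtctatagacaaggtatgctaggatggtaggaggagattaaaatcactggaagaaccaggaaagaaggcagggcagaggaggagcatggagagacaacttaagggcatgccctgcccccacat

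Of the 8 members, 7 had an entry among the RefSeq promoter sequences, all but Sds. Words of 6 kinds, chosen with earlier results known, were searched on both strands of these windows. Hal holds CTTTGAT, a word of the TCF/LEF partners of β-catenin, from 199 bases before its start, and a TATAAA box on the opposite strand from 28 bases before it. The first word occurs in 3.21% and the second in 12.4% of 32851 entries of the same length. Pigr holds CACGTG, an E-box of the kind MYC binds, from 71 bases before its start, as do 6.02% of entries. None of the 7 windows holds CAAAGTNCA (HNF4), the HNF1 word or TGACGTNA (cyclic AMP response), which occur in 1.19%, 0.371% and 2.52% of entries. The words do not overlap one another where they occur, and they describe letters only.

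Between 11687034 and 36964427 reads per tumour were assigned to genes, and 3 counts, taken as the floor, corresponded to 0.0812 to 0.257 counts per 1000000 before scaling. Values below are CPM, counts per 1000000 counts after TMM scaling, a correction for differences in RNA composition. Markers of hepatocytes were abundant in every tumour, with a summed level of 30931 to 46011 CPM over 12 genes, none of them at 0. The 19 pericentral genes summed to 28361 to 54326 CPM, led by Glul, glutamine synthetase, at a median of 10203 CPM. By the first part of a tag in the column names, tumours 04 to 06 form a family of 3, tumours 07 and 08 a family of 2 and tumours 09 to 13 a family of 5. What the tag stands for is not in the labels, so tumours that share it may come from 1 animal, and the spread below may not be that between independent animals. Rpph1, an RNA without a poly(A) tail, was at 30.1 to 50.7 CPM in tumours 05 to 07, at 4.26 CPM in tumour 04 and at 0.772 to 3.02 CPM in tumours 08 to 13.

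The 3 amino acid enzymes were low in most tumours and high in a few. Sds had a median of 0.325 CPM. Tumours 12 and 08 reached 7.69 and 7.25 CPM, while the next tumour, 06, had 1.64 CPM and tumour 05 had 0 counts. Against a floor of 3 counts in that library, tumour 12 was at least 40.0-fold higher than tumour 05. Tumours 08 and 12 thus stood alone for Sds, and tumours 04 and 05 were at or under the floor. Hal, the first enzyme of histidine breakdown, was lowest in tumour 13 at 0.934 CPM, had a median of 1.84 CPM and was highest in tumours 08 and 12, at 13.4 and 10.9 CPM. No other tumour exceeded 2.80 CPM for Hal. Gldc, the decarboxylating subunit of the glycine cleavage system, ran from 4.80 CPM in tumour 05 through a median of 11.1 CPM to 50.6 CPM in tumour 08, and here the next was tumour 09 at 31.4 CPM, before tumour 12 at 21.1 CPM.

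Cyp2f2 had the same leading tumours as Sds and Hal. Its values of 48.3 CPM in tumour 08 and 32.1 CPM in tumour 12 compare with 5.49 CPM in the next tumour, a median of 3.75 CPM and 0.128 CPM in tumour 05. The lowest value rests on 2 counts, so the ratio of 377 between the highest and the lowest tumour has an exact 95% counting interval of 104 to 3119. Since Sds had 0 counts in tumour 05, the ranges of these genes cannot be ordered. Hsd17b13 was the most abundant member and the most evenly present of the 3, at 11.2 CPM in tumour 07, a median of 54.3 CPM and 99.5 CPM in tumour 09. Tumours 08 and 12 came next, at 95.5 and 82.4 CPM, and did not stand apart from the rest. Aldh1b1 had another leading tumour. Tumour 09 had 82.2 CPM, tumour 12 had 24.98 CPM and tumour 11 had 8.19 CPM, against a median of 4.21 CPM and only 0.995 CPM in tumour 07. Tumour 08, the highest for 4 members, had 4.59 CPM of Aldh1b1.

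Pigr followed the pattern of Sds, Hal and Cyp2f2, with 156 CPM in tumour 08 and 108 CPM in tumour 12. The other 8 tumours had between 5.25 CPM (tumour 05) and 35.8 CPM (tumour 06), and the median of all 10 was 26.0 CPM. Ctsc varied least of the members, from 6.66 CPM in tumour 05 through a median of 16.8 CPM to 31.6 CPM in tumour 09. For Ctsc tumour 08 was among the low tumours, at 11.4 CPM, and tumour 12 had 17.6 CPM.

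**Figure D1:**
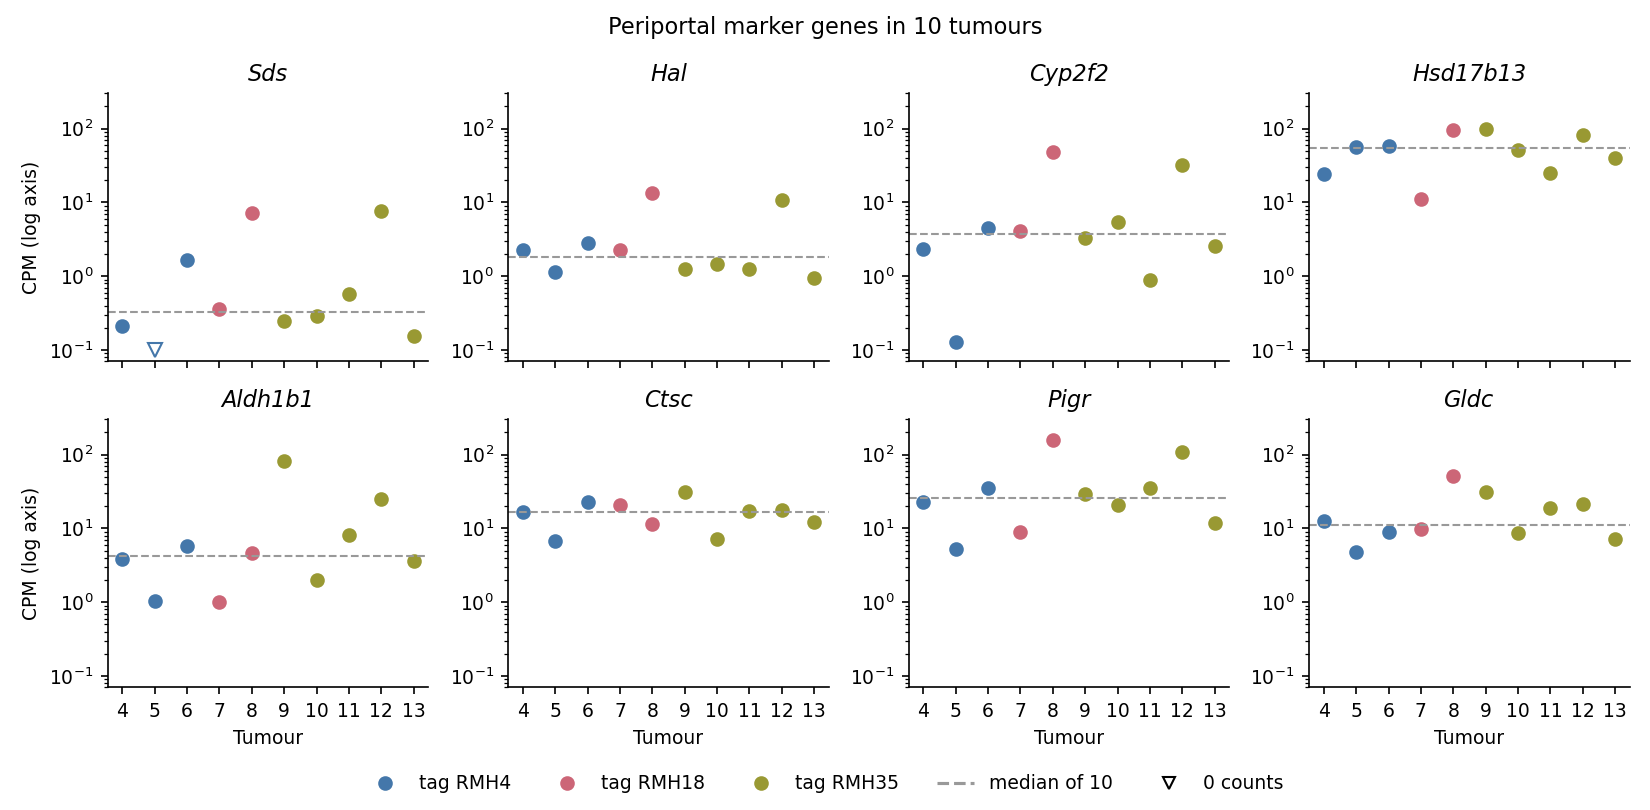
CPM of each marker gene (log axis) in tumours 04 to 13, 1 point per tumour, coloured by tag family, with the median of the 10 tumours as a dashed line and an open triangle for 0 counts. Tumours 08 and 12 lie apart at the top for Sds, Hal, Cyp2f2 and Pigr, and tumour 09 is highest for Hsd17b13, Aldh1b1 and Ctsc.

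Levels of different genes were compared per length, as RPKM (CPM per 1000 bases of exon). By its median over tumours Hsd17b13 stood first at 25.1 RPKM, a level that 11.6% of 15416 genes exceeded. Pigr (6.43 RPKM), Ctsc (2.69), Aldh1b1 (1.73), Cyp2f2 (1.13), Gldc (1.11), Hal (0.331) and Sds (0.175) followed, and 90.9% of genes exceeded the median RPKM of Sds. Hsd17b13 was above Pigr in 10 of 10 tumours, Pigr above Ctsc in 9 of 10 and Gldc above Hal in 10 of 10. The mean difference between Pigr and Ctsc, 1.47 log2 units, was about as large as its SD between tumours, 1.49. The other neighbours in this order were not separated beyond their spread. Ctsc exceeded Aldh1b1 in 6 of 10 tumours, Aldh1b1 exceeded Cyp2f2 in 7, Cyp2f2 exceeded Gldc in 6 and Hal exceeded Sds in 6.

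Tumours 08 and 12 were the highest pair for 4 of the 8 members, Sds, Hal, Cyp2f2 and Pigr, a pattern that was looked for after the values were seen. Across all genes tested the same pair was highest for 2.45%, or 378 of 15416. The lower of the pair exceeded the highest of the other 8 tumours 4.41-fold for Sds, 3.91-fold for Hal, 5.85-fold for Cyp2f2 and 3.00-fold for Pigr. Neither tag nor family joined these tumours. Tumour 07, which shares the tag of tumour 08, had 0.362 CPM of Sds, 2.26 CPM of Hal, 4.16 CPM of Cyp2f2 and 8.86 CPM of Pigr. Tumours 11 and 13, which share the tag of tumour 12, had 0.567 and 0.156 CPM of Sds and 35.8 and 11.7 CPM of Pigr. At the other end, tumour 05 was the lowest for 5 members (Sds, Cyp2f2, Ctsc, Pigr and Gldc) and tumour 07 for Hsd17b13 and Aldh1b1. In tumour 12 all 8 members were above their median, in tumours 06 and 08 7 were, and in tumour 13 none was. Tumours 05 and 07 also had the highest Rpph1, at 40.4 and 50.7 CPM. Against that, Rpph1 was at 30.1 CPM in tumour 06 and at 1.95 CPM in tumour 13. The mean log2 CPM of the 8 genes, the periportal score, was 2.89 ± 1.17 (SD, n = 10) and ran from 1.04 in tumour 05 to 4.72 in tumour 12 and 4.69 in tumour 08. The mean log2 CPM of the 12 hepatocyte genes had the same extremes over a narrower range, 8.81 in tumour 05 and 9.66 in tumour 12. It was 9.50 in tumour 06 and 9.44 in tumour 08.

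Spread was expressed as the SD of log2 CPM between tumours, with a prior count of 2 added. It was 2.22 log2 units for Cyp2f2, 2.08 for Sds, 1.93 for Aldh1b1, 1.502 for Pigr, 1.30 for Hal, 1.04 for Gldc, 1.00 for Hsd17b13 and 0.71 for Ctsc. With a prior count of 0.5, Sds (2.51) came before Cyp2f2 (2.35). Of all genes tested, 11.3% had an SD above 1, and 7 of the 8 members did, all but Ctsc. Hsd17b13 lay at the threshold, and with DESeq2 size factors its SD was 0.996 and the count 6 of 8. When 1 tumour was left out the count was 5 to 7, the lowest without tumour 08. The median SD was 1.40 over the members and 0.392 over all 15416 genes. All 8 members passed the filter on low counts, but under a stricter one, which asks for reads in every tumour, Sds and Cyp2f2 dropped out, so these counts describe the members and do not test them. Leaving tumours 08 and 12 aside lowered the SD of Hal from 1.30 to 0.53, of Sds from 2.08 to 1.18 and of Pigr from 1.502 to 1.01. Over the same 8 tumours the SD of Aldh1b1 was 2.00, that of Hsd17b13 0.97 and that of Ctsc 0.79, so for these 3 the spread did not rest on that pair. Without it 4 of the 8 members had an SD above 1.

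**Figure D2:**
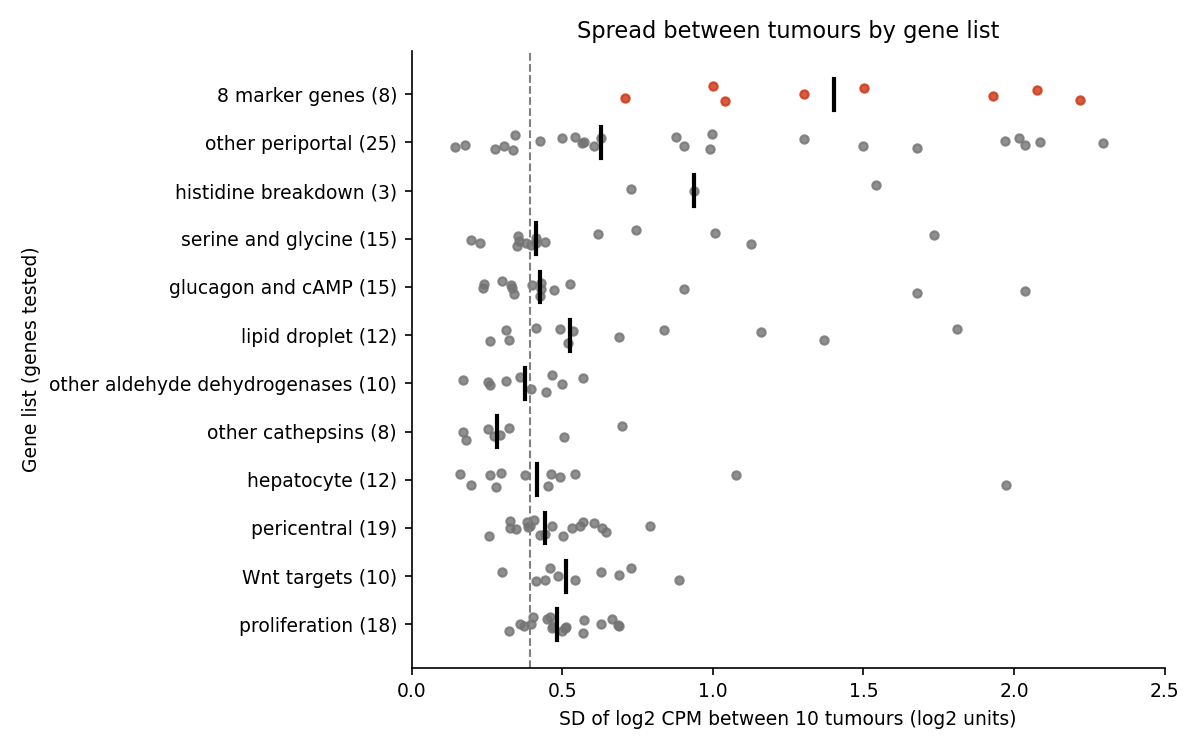
SD of log2 CPM between the 10 tumours (x axis, log2 units) for the genes of 12 lists (y axis, number of tested genes in parentheses), 1 point per gene, with the median of each list as a black bar and the median of all 15416 genes as a dashed line. The 8 marker genes have a median of 1.40, other periportal genes 0.63 and pericentral genes 0.44.

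Whether the members rose and fell together was tested with edgeR's quasi-likelihood test, regressing every gene on the log2 CPM of 1 member at a time, with Benjamini-Hochberg adjustment over the 15415 other genes. With Sds as the covariate, 0.0195% of genes (3) passed an adjusted p of 0.05, and 2 of the 3 were members. Pigr rose by 0.65 ± 0.08 log2 units per log2 unit of Sds (SE, adjusted p = 0.0321) and ranked first of all genes. Hal rose by 0.60 ± 0.08 (SE, adjusted p = 0.0321) and ranked second. The remaining gene was Gls2, the liver-type glutaminase and a portal enzyme from the list of other periportal genes (slope 0.67 ± 0.09, adjusted p = 0.0321). Gls2 was also the single gene called with Hal as the covariate (0.00649% of genes), with a slope of 1.15 ± 0.10 and an adjusted p of 0.00282. It had 13.7 CPM in tumour 08 and 19.8 CPM in tumour 12, and between 0.945 and 3.53 CPM in the other 8.

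Taken in the other direction the same pairs missed the threshold, with an adjusted p of 0.0963 for Sds on Pigr and 0.0974 for Sds on Hal. So 0 of the 28 pairs of members passed both ways by edgeR, 11 had an unadjusted p under 0.05 both ways, and DESeq2 called 7. The DESeq2 pairs were the 6 among Sds, Hal, Cyp2f2 and Pigr, and Pigr with Gldc. Sds, Hal, Cyp2f2 and Pigr are also the genes for which tumours 08 and 12 stood highest, so their pairs restate that pattern and do not add to it. Of all 56 slopes, 52 were positive, and 27 had an unadjusted p under 0.05. Over all genes an unadjusted p under 0.05 was reached by 5.36% on Sds, 2.49% on Hal, 7.97% on Cyp2f2, 7.91% on Hsd17b13, 8.63% on Aldh1b1, 8.6% on Ctsc, 6.33% on Pigr and 5.37% on Gldc. DESeq2 called 0.258% of genes on Sds, 0.0389% on Hal, 0.22% on Cyp2f2, 0.689% on Hsd17b13, 0.623% on Aldh1b1, 1.09% on Ctsc, 0.404% on Pigr and 0.104% on Gldc.

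**Figure D3:**
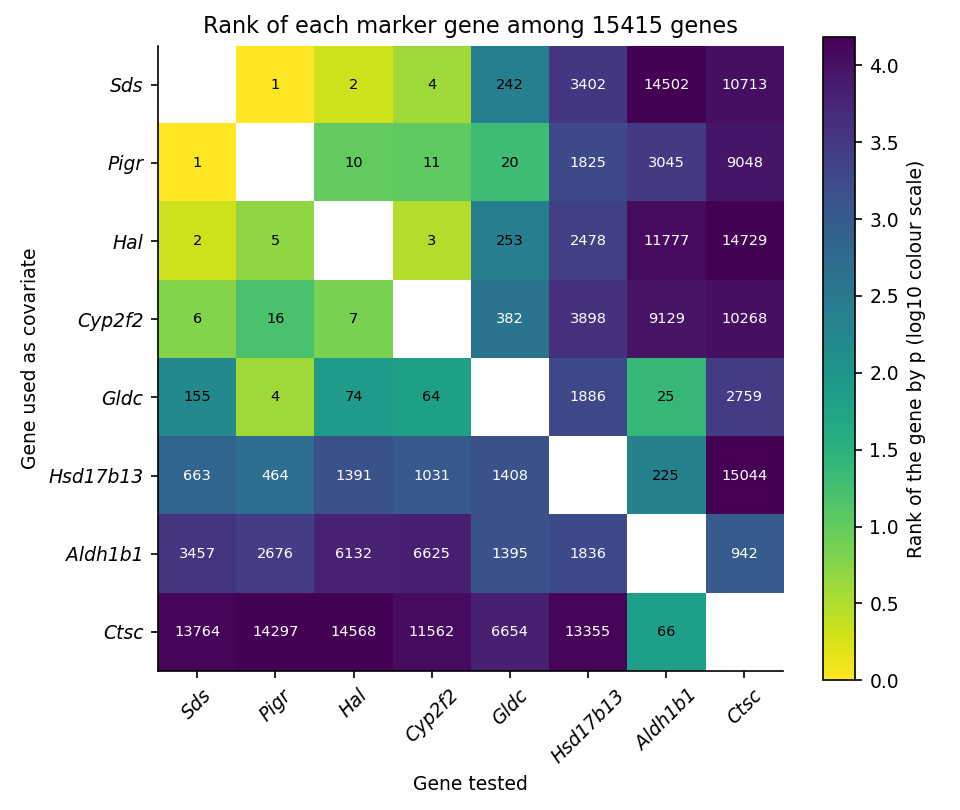
Rank by p of each marker gene (columns) among 15415 genes regressed on the log2 CPM of another marker gene (rows), on a log10 colour scale, with rank 1 the smallest p. Sds, Pigr, Hal and Cyp2f2, which share their highest tumours, rank between 1 and 16 with one another. Pigr ranks 4 on Gldc and Gldc 20 on Pigr, and Aldh1b1 ranks 66 on Ctsc and Ctsc 942 on Aldh1b1.

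These fits were repeated without tumours 08 and 12, the highest pair for Sds, Hal and Pigr. The slope of Hal on Sds was then 0.31, against 0.60 in all 10 tumours, while that of Pigr was 0.66, against 0.65. Neither passed in these 8 tumours (edgeR adjusted p = 1.00 for each, unadjusted p = 0.109 and 0.0130), and the 12 directed fits among Sds, Hal, Cyp2f2 and Pigr ranked between 48 and 7178 of 16101 genes. In the same 8 tumours Aldh1b1 ranked 4 on Gldc (slope 2.16 ± 0.32, adjusted p = 0.223) and 73 on Ctsc (slope 2.30 ± 0.51, adjusted p = 0.276), and Gldc ranked 53 on Aldh1b1. Leaving out any 1 tumour kept the slope of Hal between 0.53 and 0.66 and that of Pigr between 0.60 and 0.70. The adjusted p then ran from 0.0536 to 0.484 for Hal, which passed in none of 10 such fits, and from 0.0424 to 0.425 for Pigr, which passed in 1, without tumour 07. In tumours 08 to 13 alone, which leaves out tumour 04 although its Rpph1 was close to theirs, the slopes were 0.75 for Hal and 0.59 for Pigr, ranked first and second of 16344 genes, with adjusted p of 0.192 and 0.278. Tumours 04 to 07 were not fitted apart. With the tag as a block, so that only tumours sharing a tag were compared, the slope on Sds was 0.61 for Hal (adjusted p = 0.143) and 0.74 for Pigr (adjusted p = 0.0964). With the tag family as a block it was 0.61 (adjusted p = 0.0769) and 0.69 (adjusted p = 0.0993). So neither call held within tags or families, while the slopes were close to those without a block. Gls2 on Hal passed with the family block and not with the tag block, and Gls2 on Sds passed with neither. With Sds the tag block called 0 genes (931 at an unadjusted p under 0.05) and the family block called Crp and Hamp in place of the 3 genes above.

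Among the other members, whether any was tied more or less closely than those above was not tested. On Gldc, Pigr ranked 4 and Aldh1b1 25 of 15415 genes, with slopes of 1.24 ± 0.25 and 1.80 ± 0.43 (SE, adjusted p = 0.808 for both). With Gldc, Hsd17b13, Aldh1b1, Pigr or Cyp2f2 as the covariate 0 genes of the genome passed by edgeR, against 828, 1220, 1330, 975 and 1229 at an unadjusted p under 0.05 and 16, 65, 96, 61 and 32 by DESeq2. With the tag as a block 2 genes passed on Cyp2f2, Aspg and Wfdc21, and 0 on the other 4, and with the family block 0 passed on any of the 5.

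Other genes were called with Ctsc. With Ctsc as the covariate 6 genes passed (0.0389%), none of them a member. They were Mpeg1 and Msr1, made by macrophages, Ccr2, a chemokine receptor of monocytes, Ctss, a cathepsin of antigen-presenting cells, Lrat, a retinol enzyme of stellate cells, and Serpina3g, a protease inhibitor. Mpeg1 had the smallest p (slope 1.04 ± 0.13, adjusted p = 0.0379) and ran from 15.2 CPM in tumour 05 to 67.8 CPM in tumour 09, the tumours where Ctsc was lowest and highest. With the tag or the tag family as a block, 0 genes passed with Ctsc (1448 and 1466 at an unadjusted p under 0.05). On a score of 12 macrophage genes, the mean of their log2 CPM, Ctsc had a slope of 0.83 ± 0.12 (SE) and ranked second of 15404 genes, but its adjusted p was 0.195. By edgeR 0 genes, members included, passed with this score (1238 genes, or 8.04%, and 2 members, Ctsc and Aldh1b1, at an unadjusted p under 0.05), while DESeq2 called 87 genes (0.6%), among them 1 member, Ctsc (adjusted p = 3.94e-06). The score ran from 2.06 in tumour 05 to 4.74 in tumour 09. All 12 macrophage genes were detected, their summed level was 187 to 553 CPM, and Marco was at 0 in tumour 05, where Cd68 was at its highest (68.6 CPM). In whole-tumour RNA, fewer cells of a type and less RNA per cell cannot be told apart. The other 7 members ranked between 135 (Aldh1b1) and 13316 (Cyp2f2) on the same score.

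**Figure D4:**
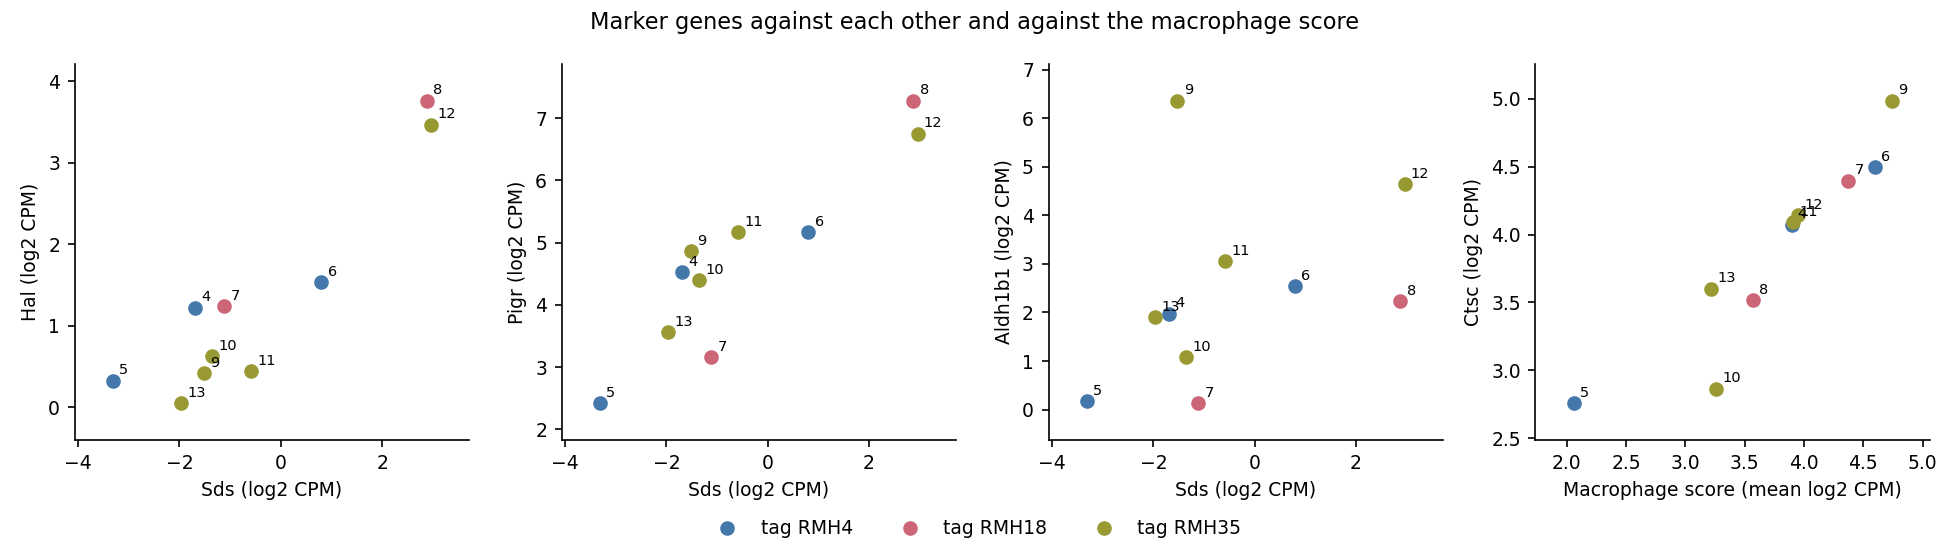
Log2 CPM of Hal, Pigr and Aldh1b1 against that of Sds, and of Ctsc against the macrophage score (mean log2 CPM of 12 genes), 1 numbered point per tumour, coloured by tag family. Tumours 08 and 12 are at the upper right for Hal and Pigr, tumour 09 is the highest for Aldh1b1 at a low Sds, and Ctsc is lowest in tumour 05 and highest in tumour 09, as is the score.

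β-Catenin output was taken as the mean log2 CPM of 10 Wnt target genes, Axin2, Lgr5, Notum and Glul among them. The score was lowest in tumour 06 (6.97) and tumour 09 (7.03) and highest in tumour 07 (8.22). By edgeR 0 members and 1 gene of 15406 (0.00649%, Steap4) passed with it, 1 member and 1986 genes (12.9%) had an unadjusted p under 0.05, and DESeq2 called 338 genes (2.66%) and 0 members. Aldh1b1 came nearest, falling by 3.58 ± 1.25 log2 units per unit of score (SE) with an adjusted p of 0.283. Its 82.2 CPM in tumour 09 stood beside one of the lowest Wnt target scores, and its 0.995 CPM in tumour 07 beside the highest. Tumour 06, with the lowest score, had only 5.72 CPM, and tumour 05, with a score of 7.28, had 1.02 CPM. Without tumour 09 the slope was -1.06 (adjusted p = 0.816). Hsd17b13 had a slope of -1.30 ± 0.68 (adjusted p = 0.454). Sds, Hal, Cyp2f2, Pigr and Gldc had positive slopes, each smaller than its standard error, and each turned negative in 2 to 10 of its alternatives, both blocks among them. With the tag as a block the slopes were -5.00 for Sds, -2.54 for Hal, -4.36 for Cyp2f2, -3.09 for Pigr and -2.36 for Gldc, and with the family block they were -5.89, -2.37, -3.90, -2.35 and -1.62. All 8 members then had negative slopes under both blocks, with Aldh1b1 at -5.69 ± 1.14 under the tag block and -4.34 ± 0.99 under the family block (SE). None of the 8 passed in either case (lowest adjusted p = 0.614 and 0.292). Counts summed by tag, which leaves 5 values, moved the slopes the other way. They were then 3.82 for Sds, 2.94 for Hal, 5.12 for Cyp2f2, 3.02 for Pigr and 2.81 for Gldc. Aldh1b1 was at 1.02, Hsd17b13 at 0.50 and Ctsc at -0.09, and none of the 8 passed (lowest edgeR adjusted p = 0.515).

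With the proliferation score, the mean log2 CPM of 18 cell cycle genes, all 8 members had positive slopes (median 2.36, against -0.02 over all genes). By edgeR 0 members and 0 of 15398 genes passed, 5 members (Sds, Hal, Cyp2f2, Pigr and Gldc) and 1092 genes (7.09%) had an unadjusted p under 0.05, and DESeq2 called 76 genes (0.494%), among them 2 members, Sds (adjusted p = 0.0349) and Cyp2f2 (adjusted p = 0.0076). Cyp2f2 rose by 4.09 ± 1.05 log2 units per unit of score (SE, edgeR adjusted p = 0.499), and by 1.49 without tumours 08 and 12 (adjusted p = 0.881). The score was highest in tumour 08 (4.83), then in tumour 13 (4.57) and tumour 12 (4.31). Sds, Cyp2f2, Hsd17b13, Pigr and Gldc kept the positive sign of their slopes in each alternative in which they were fitted, but not the size. Without tumours 08 and 12 the slope fell from 4.57 to 1.45 for Sds and from 2.49 to 0.49 for Pigr. It fell from 1.56 to 0.51 for Gldc and from 1.24 to 1.05 for Hsd17b13. For Aldh1b1 and Ctsc it was larger without that pair, at 4.90 and 0.54. Aldh1b1, at 3.16 ± 2.27 (SE) in all 10 tumours, had a slope of -1.98 in tumours 08 to 13 alone, and Hal turned from 2.24 to -0.52 without tumours 08 and 12. The slope of Ctsc was 0.05, with no clear direction, and it was negative in 5 of 20 alternatives. Tumour 13 went against the slope, since none of the 8 members was above its median there.

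Between the 3 tag families 5 genes of 15416 (0.0324%) and 0 members differed by edgeR's F test. Of the members, 1 had an unadjusted p under 0.05, Aldh1b1 (adjusted p = 0.371), as did 2021 genes (13.1%). DESeq2 called 601 genes (3.93%) and 0 members, but gave no p for Sds, Hal and Cyp2f2. The families overlapped for each member. For Cyp2f2, tumours 04 to 06 had 0.128 to 4.50 CPM, tumours 07 and 08 had 4.16 and 48.3 CPM, and tumours 09 to 13 had 0.882 to 32.1 CPM.

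Of 25 other periportal genes, all tested, 8 had an SD above 1 and 5 had tumours 08 and 12 as their highest pair (Pck1, Gls2, Tat, Etnppl and Atp5a1). Over all genes tested these shares were 11.3% and 2.45%. None passed a test on a score or family by edgeR. Genes of the urea cycle differed in their spread. Cps1, which makes carbamoyl phosphate, ran from 4.55 CPM in tumour 05 to 223 CPM in tumour 12, with an SD of 2.03. By contrast Asl, argininosuccinate lyase, stayed between 202 and 306 CPM with an SD of 0.18. Pck1, the entry enzyme of gluconeogenesis, was lowest in tumour 07 at 15.7 CPM and highest in tumours 08 and 12, at 394 and 365 CPM. Of the most abundant genes of the list, Apoa4 and Hpx had medians of 3123 and 2377 CPM, and Apoa4 had its lowest level, 1257 CPM, in tumour 12. Of the 19 pericentral genes 0 had an SD above 1, and tumours 08 and 12 were the highest pair of 0. Against shares of 11.3% and 2.45% over all genes, counts of 0 among 19 genes lie near the background. Glul, Oat, Cyp2e1 and Gulo, the most abundant, had SDs of 0.44, 0.41, 0.39 and 0.39.

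**Figure D5:**
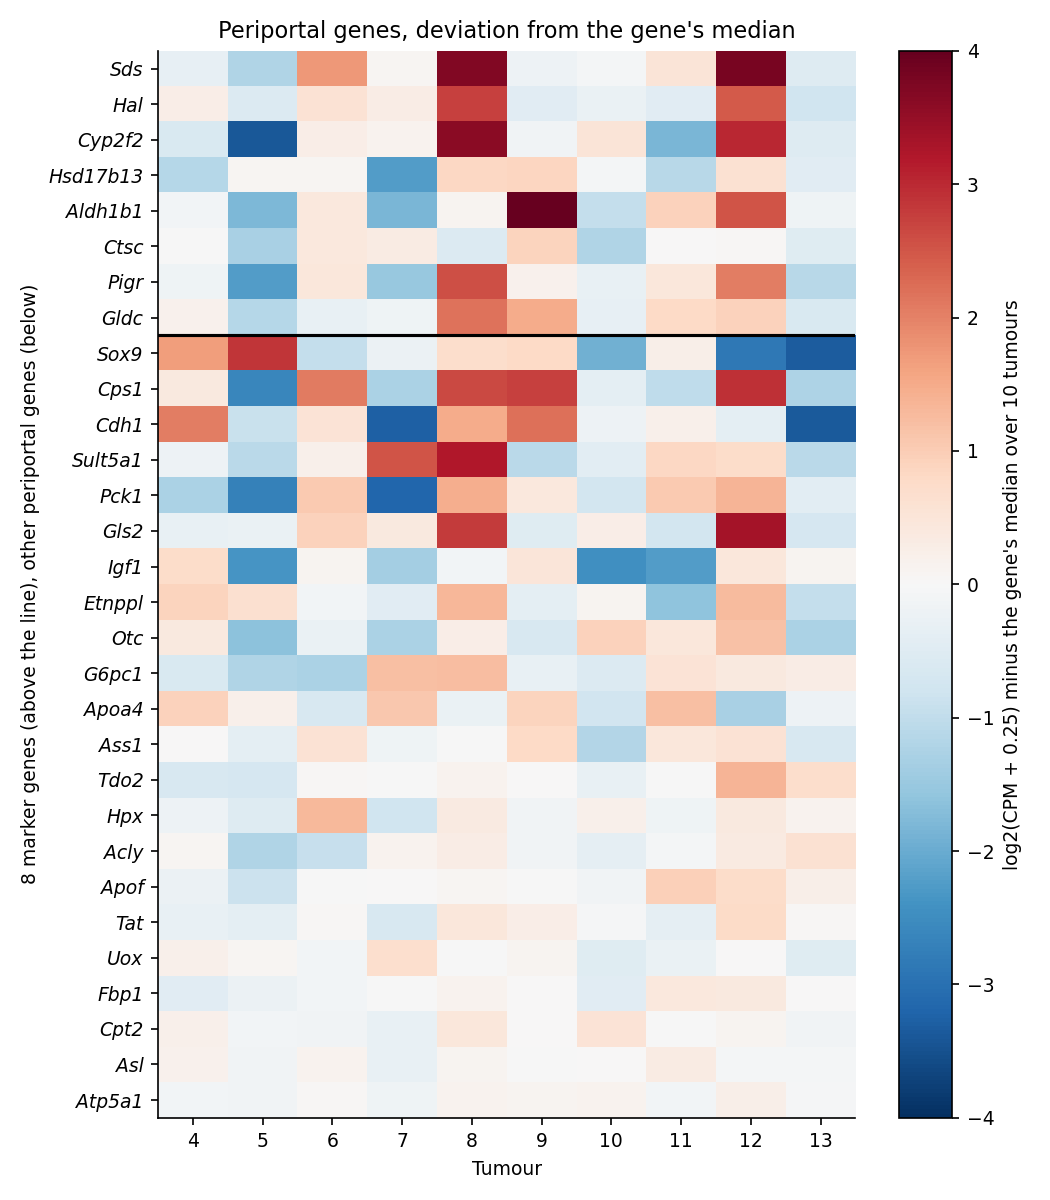
Deviation of log2(CPM + 0.25) from the median of each gene over 10 tumours, by colour (red above, blue below, ending at 4 log2 units), for the 8 marker genes above the line and 22 of the 25 other periportal genes below it, ordered by spread, with tumours as columns. Tumours 08 and 12 are red for Sds, Hal, Cyp2f2, Pigr and Gls2, and tumour 05 is blue for Cyp2f2, Pigr and Cps1.

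The genes whose pattern was most like that of the members were ranked by Pearson's r with the mean of the 8 standardised profiles, over 10 tumours and 10427 genes with a mean of at least 5 CPM, as a description. Their median r was -0.02, and 39 genes (0.374%) exceeded 0.8. Cps1 came first (r = 0.94), then C9, a terminal complement component (0.93), and Alb, albumin (0.92). Cyp2a12 (0.89), Acnat1 (0.89), Hamp, the iron hormone hepcidin (0.89), Mrpl16 (0.89), Tedc2 (0.89), Serpina1e (0.87) and Aadat (0.87) completed the 10 highest. Each of these but Aadat was lowest in tumour 05, as were 5 of the members. C9 ran from 0.128 CPM in tumour 05 to 26.2 CPM in tumour 08, while Alb covered a narrow range, from 13064 to 23454 CPM. The 5 lowest were Pla2g12a (-0.92), Zbtb7b (-0.90), Niban1 (-0.88), Dnttip1 (-0.88) and Pcgf2 (-0.87), all highest in tumour 05. All points share the same 10 libraries, and the order rests on few of them.

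Levels of other cell types differed between the tumours that carry these patterns. Tumour 09, the highest for Hsd17b13, Aldh1b1 and Ctsc, also had the highest summed level of 9 stellate and stromal genes (1797 CPM, against 258 CPM in tumour 12) and of 10 biliary genes (165 CPM, against 38.9 CPM in tumour 13). Tumour 07, the lowest for Hsd17b13 and Aldh1b1, had the highest sums of 8 endothelial genes (474 CPM, lowest 68.9) and 5 blood genes (6055 CPM, lowest 102). Tumour 06, where 7 members were above their median, had the highest macrophage sum and the highest neutrophil and monocyte sum (31.8 CPM over 8 genes, lowest 2.89). Lymphocyte and plasma cell genes were low throughout, at 2.02 to 15.5 CPM over 12 genes. Apart from the macrophage score, the part of these cells in the members' levels was not tested.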

How the data were processed

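RNA abundance was measured by paired-end sequencing of polyadenylated RNA from whole snap-frozen tumours, extracted with Trizol and prepared with a stranded mRNA kit. The authors deposited 1 table of raw read counts per gene with 19 columns. The submitters' processing notes name TopHat2, HTSeq and GRCm38, and the table ends in 5 summary lines of the HTSeq kind. The study's methods name STAR, FeatureCounts and GRCm39 for single-end reads, and which of these made this table is not settled by the sources. The versions and the strand setting behind this table are not given in the sources used here, so reads of overlapping antisense genes may be included. The summary lines held 51.7% to 66.0% of the sum of a column, chiefly the line for alignments that were not unique (45.4% to 57.9%), and stayed out of library sizes and tests. Levels of genes with near-identical copies are therefore uncertain.

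A column was used where the number in its name matched 1 sample title and no other, as for 10 tumours, on the assumption that titles and columns were numbered alike. The other 9 columns were not used.

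From the counts, genes were kept with filterByExpr (tag families as groups, 15416 genes), scaled with TMM and fitted with edgeR 4.0.16 (glmQLFit and glmQLFTest, R 4.3.3, limma 3.58.1). An adjusted p under 0.05 counted as called, after Benjamini-Hochberg adjustment over all genes in each of 12 fits (3 scores, 1 over the tag families, 8 on the level of a member). Genes of a score were left out of its own fit. P-values measure the spread between these samples. Log2 CPM used a prior count of 2. The fits were also run on simulated counts, drawn independently for each tumour with the covariate known exactly. That run therefore does not cover tumours from 1 animal or a covariate measured with error. Symbols and exon lengths came from GENCODE M39 by identifier, positions and promoters from RefSeq on GRCm38.p6 by symbol. Intervals and the floor of 3 counts cover counting error only, because without molecular identifiers PCR copies cannot be told from separate molecules.

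The members and the 19 gene lists were chosen with earlier results of these data known. Named genes were the 8 members, the 10 genes most and the 5 least like their mean profile, and from each list any gene past a test and up to 4 of highest mean CPM. Others, such as Cps1, Asl and Pck1, were chosen after their values were seen. Some genes that the rule names are not reported here. Alternatives were DESeq2 1.42.0 size factors, the DESeq2 test, a stricter filter and none, counts summed by tag, Rpph1 as a covariate, a prior count of 0.5, the median over genes and leaving out each tumour. The prior count of 0.5 was used for the SD and the periportal score, and the median over genes for that score. No fit used either. Other alternatives were added after seeing the data, without tumours 08 and 12, with tumours 08 to 13 alone, and with the tag or tag family as a block.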

Additional observations from a re-analysis of the deposited data

How the results depend on the processing

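The count of members past the threshold was 0 for the tag families, the Wnt target score, the proliferation score and the macrophage score under each edgeR setting, leaving out any 1 tumour included. With the DESeq2 test it was 2 for the proliferation score and 1 for the macrophage score. The number of pairs called both ways was 0 by edgeR, 0 to 1 when 1 tumour was left out (1 without tumour 07), and 7 with DESeq2. Counts over all genes moved more. For the tag families, 5 genes became 601 with the DESeq2 test, 1 with the stricter filter, 27 with no filter, and 0 with counts summed by tag or with Rpph1 as a covariate, and 0 to 210 when 1 tumour was left out, the highest without tumour 09 and then 69 without tumour 04. For the Wnt target score, 1 gene (Steap4) became 338 with DESeq2, 2 with the stricter filter, 3 with no filter, 9 with Rpph1, 0 with counts summed by tag, without tumours 08 and 12 or with tumours 08 to 13 alone, and 0 to 17 when 1 tumour was left out, the highest without tumour 07. For the proliferation score, 0 genes became 76 with DESeq2, 1 without tumours 08 and 12, and 0 to 0 when 1 tumour was left out. For the macrophage score, 0 became 87 with DESeq2 and 0 to 1 when 1 tumour was left out. The tag family fit was not run on tumours 08 to 13 alone. The slopes of Hal and Pigr on Sds kept their sign in all settings that were fitted, none of which changed the prior count. They passed under none of counts summed by tag, Rpph1 as a covariate, without tumours 08 and 12 or tumours 08 to 13 alone (adjusted p = 0.102 to 1.00). The slope of Aldh1b1 on the Wnt target score turned to 1.02 with counts summed by tag, which leaves 5 values. With counts summed by tag the slope of Ctsc on the macrophage score was 0.42, against 0.83. In these cases the cause was not tested beyond the smaller number of samples. The median SD of the members was 1.16 to 1.49 when 1 tumour was left out. Without tumours 08 and 12 this median fell to 0.99, against 1.40 in the main setting, so part of it rested on that pair. It was 1.42 with a prior count of 0.5 and 1.40 with DESeq2 size factors. The periportal score moved by less than its SD between tumours in its other settings. Sds, with 0 to 229 counts per tumour, and Cyp2f2, with 2 counts in tumour 05, are the members that depth limits most. No paired analysis was possible because the tumours form 1 group, with no second group sharing their numbers. In place of it the fits on scores and members were run with the tag or the tag family as a block, alternatives chosen after seeing the data. The Wnt target score then called 0 genes with the tag block and 2 with the family block. Members past the threshold with a score and pairs called both ways stayed at 0, the calls of Hal, Pigr and Gls2 on Sds were lost, and the slopes of Sds, Hal, Cyp2f2, Pigr and Gldc on the Wnt target score turned from positive to negative, none of them past the threshold. On the proliferation score Aldh1b1 turned to -1.98 with tumours 08 to 13 alone and Hal to -0.52 without tumours 08 and 12. Hsd17b13 turned to 0.50 on the Wnt target score with counts summed by tag.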

Other observations

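Relatives of the members in the same pathways are given by their SD of log2 CPM between the 10 tumours, with no test against the members. Over all genes tested, 11.3% had an SD above 1. Of the 3 other genes of histidine breakdown, Ftcd, which ends the pathway, ran from 3.65 CPM in tumour 05 to 109 CPM in tumour 09 (SD 1.54), Uroc1 from 6.75 to 49.9 CPM and Amdhd1 from 10.2 to 52.2 CPM. Of 16 genes of serine and glycine metabolism 15 were tested and 3 had an SD above 1, namely Agxt (1.73), Phgdh (1.13) and Sdsl (1.01), while Amt, Gcsh and Dld, which form the glycine cleavage system with Gldc, had SDs of 0.38, 0.35 and 0.23. Sdsl, the gene most like Sds by name, had 0.128 CPM in tumour 05 and 1.95 CPM in tumour 06. The most abundant of that list were Sardh, Dmgdh, Gnmt and Shmt2, at medians of 806, 437, 411 and 350 CPM.

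Of the other aldehyde dehydrogenases, against an SD of 1.93 for Aldh1b1, 0 of 10 had an SD above 1 and the most abundant, Aldh2, Aldh3a2, Aldh1a1 and Aldh4a1, had SDs of 0.31, 0.50, 0.57 and 0.36. Among 8 other genes of the cathepsin list 0 had an SD above 1, and Ctss (0.70) came closest to Ctsc (0.71). With 11.3% of all genes above 1, counts of 0 among 10 or 8 genes are near that share. Ctsb, Ctsd, Ctsl and Ctsz, the most abundant, had SDs of 0.27, 0.18, 0.32 and 0.29. Of 12 lipid droplet genes, 3 had an SD above 1 (Cidea, Pnpla3 and Plin4), and tumour 05, the lowest for 5 of the members, was the highest for Plin2, Plin3, Plin4, Plin5, Pnpla2 and Cidec. Plin2, which coats lipid droplets, was at 1331 CPM there and at 716 CPM in tumour 12. Of 15 genes of the glucagon and cyclic AMP list, Cps1 and Pck1 had an SD above 1, and Gcgr, the glucagon receptor, had 0.47. Of 12 hepatocyte genes 2 had an SD above 1, Serpina1c and Fgb. No gene of any list passed a score or family test by edgeR, apart from the list of each score, which was not tested on it.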
